A study of Mus musculus with 4 samples.

Results

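The AP-1 transcription factor family was described here through 10 genes, all found by symbol among the 23284 genes of the deposited FPKM tables: Fos, Fosb, Fosl1 and Fosl2 of the Fos class, Jun, Junb and Jund of the Jun class, and Atf3, Batf and Maff from related classes. AP-1 is a dimer of basic leucine zipper (bZIP) proteins. Fos proteins bind DNA only with a partner, usually a Jun protein, whereas Jun proteins also pair with themselves. In blood cells Fos and Jun are immediate early genes, transcribed within minutes of a growth factor, cytokine or stress signal through MAP kinases, and they are abundant in mature myeloid cells. They also respond to the isolation and sorting of cells.

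RNA was sequenced from EGFP+ cells re-sorted from the femurs and tibias of wild-type mice 24 h after a transplant of 100000 LSK cells. LSK cells are the Lin-, Sca1+, c-Kit+ marrow fraction that holds stem and multipotent progenitor cells, and the donors were CAG-EGFP mice, in which a ubiquitous promoter drives EGFP. Recipients were either not treated or had been given 5-fluorouracil (5-FU), a pyrimidine analog that kills dividing cells, intravenously at 200 mg/kg 2 days before the transplant. There were 2 libraries per group, labelled as biological replicates, each from 1 recipient. The labels used here state no age. The comparison asks how EGFP+ cells recovered from a 5-FU-treated marrow differ from those recovered from an untreated one.

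All 10 fixed markers of stem and progenitor cells had a value above 0 in every library, among them Kit and Cd34. All 15 macrophage markers did too, and their summed level was 24274 and 27292 FPKM in control recipients 1 and 2 and 20405 and 12454 FPKM in 5-FU recipients 1 and 2. The spacing of low values implied 6870000 and 7140000 reads in the control and 8490000 and 9170000 in the 5-FU libraries, rough figures from the worth of 1 read in genes with a single annotated transcript. In RNA from a mixture of cells, fewer cells of a type and less RNA per cell cannot be told apart.

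The sequences before the start sites of some members are shown first, from RefSeq (GRCm38.p6). The 150 bases just before the start are given 5′ to 3′ on the gene's own strand for Fos, Fosb, Jun and Junb, which were lower in 5-FU recipients, and for Batf, which did not pass the test. Capitals mark TGACG, the core of the cAMP response element, and TGACATCA, a variant AP-1 site.

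Fos, chr12:85473740-85473889 (plus strand): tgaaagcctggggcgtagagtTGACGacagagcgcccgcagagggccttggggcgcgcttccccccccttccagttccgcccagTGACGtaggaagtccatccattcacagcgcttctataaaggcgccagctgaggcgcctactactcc
Fosb, chr7:19310046-19310195 (minus strand): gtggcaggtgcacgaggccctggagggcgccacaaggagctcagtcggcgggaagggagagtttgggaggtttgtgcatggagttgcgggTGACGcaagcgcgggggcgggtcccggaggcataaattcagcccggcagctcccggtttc
Jun, chr4:95052223-95052372 (minus strand): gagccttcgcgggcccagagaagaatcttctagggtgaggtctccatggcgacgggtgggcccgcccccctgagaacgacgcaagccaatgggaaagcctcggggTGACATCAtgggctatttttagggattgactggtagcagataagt
Junb, chr8:84978749-84978898 (minus strand): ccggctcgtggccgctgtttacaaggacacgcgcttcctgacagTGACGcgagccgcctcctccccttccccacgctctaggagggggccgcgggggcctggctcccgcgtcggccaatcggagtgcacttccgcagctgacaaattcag
Batf, chr12:85686570-85686719 (plus strand): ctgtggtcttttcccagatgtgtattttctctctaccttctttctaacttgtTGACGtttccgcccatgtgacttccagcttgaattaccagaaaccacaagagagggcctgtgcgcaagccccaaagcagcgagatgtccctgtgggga

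Over the 250 bases before the start, searched on both strands, TGACG was found at least once in Fos, Fosb, Junb, Atf3, Batf and Maff, that is in 6 of the 9 genes with an entry (Fosl1 has none) and in 7 of their 11 windows, Maff having 3. Of all 32851 RefSeq windows of that length, 17.8% hold it. TGACATCA was found in 2 of the 11 windows, that of Jun and 1 of Maff, and 2.93% of all windows hold it. The full element TGACGTCA, which contains TGACG, was found in 1 of the 11, of Maff (1.55% of all windows). The GC box GGGCGG, a common promoter motif, was found in 8 of the 11 windows against 32.7% of all. The AP-1 site TGANTCA (6.75% of all windows) and the CArG box bound by SRF (1.47%) had no match in these windows of the 9 genes. Bases farther upstream were not searched, so nothing follows for sites there. TGACG was thus found before 3 of the 5 genes that fell (Fos, Fosb and Junb), not in the windows of Jun and Jund. It was also found before Atf3, Batf and Maff, which did not pass, and not before Fosl2. Any part of these motifs in the fall was not tested. The window of Jund is not shown because it ends at 70697738 and does not adjoin the annotated gene start at 70698949. It is still counted among the 9 genes and 11 windows, so its lack of matches says nothing about the bases before the annotated start. RefSeq and annotated starts differ for other members too. The windows of Atf3 and Fosl2, and some of those of Maff, lie inside the annotated gene. The windows of Batf and Fosb run past the annotated start. All counts use the RefSeq starts. TGACG and TGACATCA were added to the search after the sequences had been seen.

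Of the 10 genes, 5 fell in cells from 5-FU recipients, Fosb, Fos, Jun, Jund and Junb, and none rose. Another 4, Atf3, Batf, Maff and Fosl2, did not pass the threshold, and Fosl1 was below the filter on low values (1 FPKM or more in at least 2 libraries) and was not tested. A gene is said to have fallen or risen when limma's adjusted p for the difference in log2(FPKM + 1) was under 0.05 (Benjamini-Hochberg over 11496 genes). Over all genes tested, 4.67% were lower and 8.23% higher by the same rule. At an unadjusted p under 0.05 none of the 9 was higher and 6 were lower. The shares above are for the adjusted rule and are no background for this looser cutoff. The median difference of the 9 tested members was −1.04 on that log2 scale, beside −0.01 for all tested genes. In 6 of the 9 tested members both 5-FU libraries lay below both control libraries, a pattern found in 30.7% of all tested genes, and in none did both lie above (31.4%). The calls rested on having both control libraries: without control replicate 1, limma called 0 of the 9 members lower (5 at an unadjusted p under 0.05), and without control replicate 2 it called only Fosb, the lone control library being assumed to vary like the 5-FU pair. All 5 genes kept their negative sign in each of those fits, with adjusted p from 0.0262 for Fosb to 0.342 for Junb, and with no filter on low values, over 16391 genes, limma also called 0 members lower and 0 higher (5 lower and 1 higher, Fosl1, at an unadjusted p under 0.05).

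**Figure D1:**
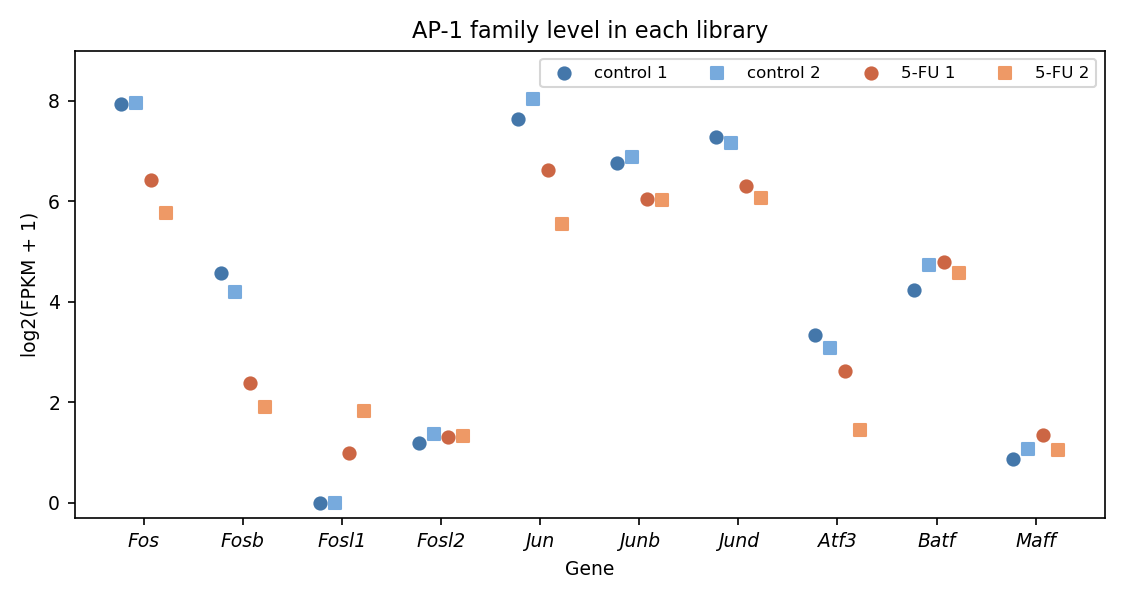
Level of each of the 10 genes on the log2(FPKM + 1) scale (y axis), with 1 point per library. The control points (blue) of Fos, Fosb, Jun, Junb, Jund and Atf3 lie above the 5-FU points (orange), those of Fosl2, Batf and Maff are mixed with them, and Fosl1 is listed at 0 in both controls.

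Fos, the founding member of its class, lies on chromosome 12 at 85473890 to 85477273 (plus strand; coordinates of genes are GENCODE M21 on GRCm38, to which mm10 corresponds). It had 244 and 247 FPKM in control recipients 1 and 2 and 85.3 and 53.7 FPKM in 5-FU recipients 1 and 2. The control libraries were nearly equal and both far above the 5-FU libraries, of which recipient 2 was the lower. The mean went from 245 ± 1.81 to 69.5 ± 22.4 FPKM (SD, n = 2 and 2), 3.53 times lower, and the difference of −1.84 on the log2 scale (SE 0.25, limma adjusted p = 0.0104) has a 95% interval from −2.42 to −1.27. Fos ranked 404 and 407 by FPKM among the 23284 genes of the control libraries, and 1225 and 2107 in the 5-FU libraries.

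Fosb, an inducible Fos-class partner of the Jun proteins on chromosome 7 (19302696 to 19310051, minus strand), had the largest difference of the tested members. Its level was 22.7 and 17.4 FPKM in the control libraries and 4.21 and 2.74 FPKM in the 5-FU libraries, so the groups were well apart. The means were 20.0 ± 3.79 and 3.47 ± 1.04 FPKM, 5.77 times lower in 5-FU recipients. The log2 difference was −2.24 (SE 0.29, limma adjusted p = 0.00991). Fos exceeded Fosb by 10.7 and 14.2 times in the control libraries and by 20.3 and 19.6 times in the 5-FU libraries.

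The remaining Fos-class genes encode the Fos-related antigens and were near the floor of the data. Fosl2 (Fra-2; chromosome 5, 32135801 to 32157842, plus strand) had 1.29 and 1.57 FPKM in control and 1.49 and 1.50 FPKM in 5-FU libraries, with the groups overlapping. Its log2 difference was 0.04 (95% interval −0.69 to 0.77, limma adjusted p = 0.944), so a change of up to about that size was not detectable. Fosl1 (Fra-1; chromosome 19, 5447547 to 5455946, plus strand) reached 0.997 and 2.53 FPKM in 5-FU recipients 1 and 2, and its listed value was 0 in each control library. It was the only member whose 5-FU libraries both lay above both controls. Those values correspond to about 15.8 and 43.2 reads, taken from the worth of 1 read and the longest coding transcript. With no filter on low values the difference of Fosl1 did not pass either (limma adjusted p = 0.107). Of its 2033 annotated exonic bases, 1163 overlap exons of Ccdc85b on the opposite strand, which had 3.03 and 3.78 FPKM in control and 5.56 and 9.44 FPKM in 5-FU libraries. The protocols name no strand-specific step, so the value of Fosl1 is uncertain, and the part of shared reads in it was not tested.

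Jun, the founding Jun-class gene and whose protein is phosphorylated by the JNK kinases, lies on chromosome 4 at 95049034 to 95052222 (minus strand) and overlaps an antisense gene, Junos. It had 199 and 262 FPKM in the control libraries and 98.3 and 46.1 FPKM in the 5-FU libraries. The groups did not overlap, but the 5-FU libraries differed from each other more than those of any other Jun-class gene, recipient 2 having 0.469 times the level of recipient 1. The means were 230.4 ± 44.2 and 72.2 ± 36.9 FPKM, 3.19 times lower in 5-FU recipients, with a log2 difference of −1.74 (SE 0.34, limma adjusted p = 0.022). Fos and Jun stood at a similar level in each library, with a ratio of Fos to Jun of 1.23 and 0.943 in control and 0.868 and 1.16 in 5-FU libraries.

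Jund, the Jun-class member with the steadiest expression in many cell types, lies on chromosome 8 at 70698949 to 70700616 (plus strand) and overlaps an annotated antisense gene. It had 154 and 143 FPKM in control and 77.8 and 66.1 FPKM in 5-FU libraries. Both pairs were close and lay apart, at means of 149 ± 8.08 and 72.0 ± 8.22 FPKM. The log2 difference was −1.04 (SE 0.19, limma adjusted p = 0.0188), the mean being 2.07 times lower.

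Junb, an inducible Jun-class protein that restrains myeloid cell expansion, lies on the same chromosome at 84974484 to 84978718 (minus strand). It had 107 and 118 FPKM in control and 64.8 and 64.6 FPKM in 5-FU libraries, the 5-FU pair being almost equal. Its fall was the smallest of the 5, from 112 ± 7.60 to 64.7 ± 0.154 FPKM, a log2 difference of −0.79 (SE 0.18, limma adjusted p = 0.0337). That call was also lost without a mean-variance trend (adjusted p = 0.0771). Junb shares 173 of its 2301 annotated exonic bases with Prdx2 on the other strand, which had 234, 200, 190 and 300 FPKM in control recipients 1 and 2 and 5-FU recipients 1 and 2.

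**Figure D2:**
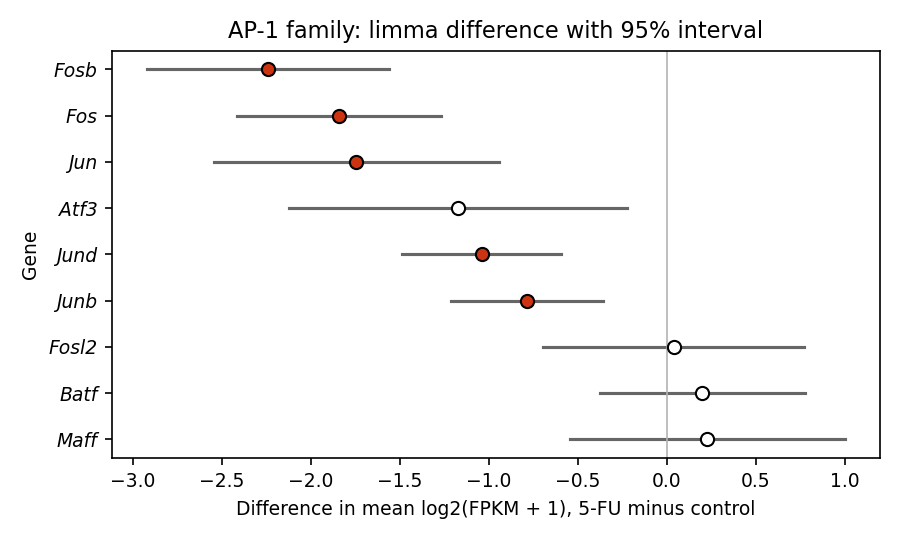
Difference between 5-FU and control recipients in mean log2(FPKM + 1) (x axis) for the 9 tested genes, with 95% intervals from limma; filled points passed at an adjusted p under 0.05. The 5 filled points run from −2.24 for Fosb to −0.79 for Junb, and the intervals of Fosl2, Batf and Maff include 0.

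Atf3, a stress-induced ATF-class protein that forms dimers with Jun proteins and often represses, lies on chromosome 1 at 191170296 to 191218039 (minus strand). It had 9.13 and 7.44 FPKM in control and 5.12 and 1.75 FPKM in 5-FU libraries. Both 5-FU values lay below both control values, but they differed widely from each other. The 5-FU values correspond to about 86.3 and 31.8 reads. The log2 difference of −1.17 (SE 0.41) did not pass (limma adjusted p = 0.0955). It depended on 1 library, being −1.75 without 5-FU replicate 1 (adjusted p = 0.00303) and −0.59 without 5-FU replicate 2 (adjusted p = 0.229). Both fits assume that the lone 5-FU library varies like the control pair, although the 5-FU libraries of Atf3 differed more than its control libraries.

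Batf, which lacks a transactivation domain and joins Jun proteins with IRF4 or IRF8 on DNA in lymphoid and dendritic cells, lies near Fos on chromosome 12 at 85686669 to 85709087 (plus strand). It had 17.8 and 25.7 FPKM in control and 26.7 and 22.9 FPKM in 5-FU libraries. The groups overlapped, and the log2 difference of 0.20 (95% interval −0.38 to 0.77) did not pass (limma adjusted p = 0.626). Maff, a small Maf protein that pairs mainly with CNC-family partners such as NRF2, lies on chromosome 15 at 79346621 to 79359076 (plus strand). It had 0.818 and 1.10 FPKM in control and 1.54 and 1.06 FPKM in 5-FU libraries, which correspond to between about 11.0 and 25.6 reads. Its log2 difference was 0.23 (95% interval −0.54 to 1.00, limma adjusted p = 0.679).

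The family as a whole was smaller and differently made up in cells from 5-FU recipients. The FPKM of the 10 genes summed to 756 and 822 in the control libraries and to 366 and 263 in the 5-FU libraries. The sum of the Jun class went from 460.5 and 522 FPKM to 241 and 177 FPKM, and that of the Fos class from 268 and 266 FPKM to 92.0 and 60.5 FPKM. Jun-class transcripts therefore exceeded Fos-class transcripts in every library. The ratio of Fos class to Jun class was 0.582 and 0.509 in control and 0.382 and 0.342 in 5-FU libraries. Fos and Jun made up 58.6% and 61.8% of the summed FPKM in control and 50.1% and 38.0% in 5-FU libraries. Junb took 14.1% and 14.3% in control and 17.7% and 24.5% in 5-FU libraries. In 5-FU recipient 2 Junb exceeded Jun by 1.40 times, whereas it had 0.537 and 0.450 times the level of Jun in the control libraries. The share of Batf was 2.35% and 3.13% in control and 7.28% and 8.71% in 5-FU libraries, although its own level did not pass the test. These shares describe the libraries and were not tested.

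**Figure D3:**
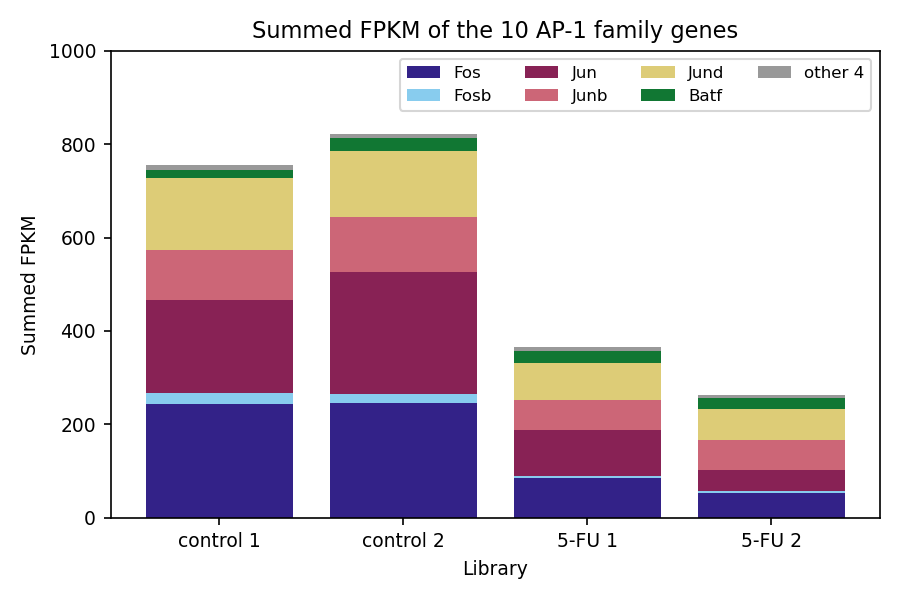
Summed FPKM of the 10 genes in each library (bar height), divided by gene. The control bars reach 756 and 822 FPKM and the 5-FU bars 366 and 263 FPKM, with Fos and Jun the parts that shrink most.

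In control libraries the order of the means from the top was Fos, Jun, Jund, Junb, Batf, Fosb, Atf3, Fosl2, Maff and Fosl1. The neighbours Fos and Jun were not separated beyond their spread, nor were Batf and Fosb. In 5-FU recipients the means of Jun, Jund, Fos and Junb lay between 64.7 and 72.2 FPKM, closer together than the spread of Fos or Jun. Among genes outside the family with a mean of at least 5 FPKM, the ones nearest to Fos over the 4 libraries were Tcp11l2, Emr4, Pid1, Klf2 and Kcnj16. The root-mean-square difference of their centred log2 values from those of Fos was 0.0575 to 0.119. The nearest to Jun were Abca9, 2010110P09Rik, Oas2, Pink1 and Il18bp, at 0.0839 to 0.141. Between Fos and Jun themselves the same measure was 0.205, between Junb and Jund 0.173, and between Fos and Batf 1.05. With 4 libraries many genes have like profiles, and nothing about shared function or control follows from this.

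Among other immediate early genes, Klf2, Zfp36 and Klf4 fell and Myc rose. Of 20 tested genes in a list of 24, 10 fell, 1 rose and 9 did not pass, with a median difference of −0.90. The shares over all tested genes were 4.67% lower and 8.23% higher. Klf2, a Krüppel-like factor of quiescent lymphoid and myeloid cells, had 124 and 118 FPKM in control and 34.4 and 25.3 FPKM in 5-FU libraries (log2 difference −1.99, SE 0.21, limma adjusted p = 0.00648). Zfp36, which encodes the mRNA decay factor tristetraprolin, went from 441 and 403 FPKM to 161 and 143 FPKM (−1.47, SE 0.20, limma adjusted p = 0.0104). Klf4, a factor of monocyte differentiation, fell by 1.89 on the log2 scale (SE 0.29). The member that rose was Myc, a growth regulator, from 66.2 and 62.4 FPKM to 136 and 215 FPKM (1.40, SE 0.25, limma adjusted p = 0.0174). Egr1, a zinc finger gene often induced together with Fos, had 39.1 and 22.6 FPKM in control and 20.9 and 33.0 FPKM in 5-FU libraries, which overlap (−0.18, SE 0.32, limma adjusted p = 0.748). Without control replicate 1 or 2, limma called 1 gene of this list lower and 0 higher.

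In the list of genes that carry the signal to AP-1, the share called lower was near that of all tested genes. In a list of the MAP kinase pathway, 1 of 32 tested genes fell, none rose and 31 did not pass (4.67% of all tested genes were lower), with a median of −0.15. Without 5-FU replicate 1 more of the list were called lower, and without either control library fewer. The number over all tested genes moved in the same ways. At an unadjusted p under 0.05, a cutoff to which the 4.67% does not apply, limma had 5 lower and 1 higher. The gene that fell was Mapk13 (p38 delta), at 6.62 and 8.07 FPKM in control and 1.90 and 1.77 FPKM in 5-FU libraries (−1.55, SE 0.29, limma adjusted p = 0.0195). Mapk8, which encodes the Jun kinase JNK1, had 2.02 and 2.03 FPKM in control and 1.77 and 2.41 FPKM in 5-FU libraries (limma adjusted p = 0.968). Srf, the factor that binds the CArG boxes of Fos and Egr1, had 2.68 and 2.22 FPKM in control and 4.33 and 4.59 FPKM in 5-FU libraries, which did not pass (0.66, SE 0.29, limma adjusted p = 0.167). Among 12 tested genes in a list of dual-specificity phosphatases and other regulators of MAP kinases, 1 fell, none rose and 11 did not pass (median −0.05). It was Dusp22, a dual-specificity phosphatase, at −1.21 (SE 0.25, limma adjusted p = 0.0248). Dusp1, the phosphatase of JNK and p38 that is induced along with Fos, had 272 and 254 FPKM in control and 175 and 77.8 FPKM in 5-FU libraries and did not pass (−1.17, SE 0.35, limma adjusted p = 0.0658). Leaving out 5-FU replicate 1 gave −1.75 (adjusted p = 9.99e-05) and leaving out 5-FU replicate 2 gave −0.59 (adjusted p = 0.0317), so it passed in both fits, with the lone library again assumed to vary like the control pair. Of 22 other tested bZIP genes none was called in either direction by limma, with a median of −0.21. At an unadjusted p under 0.05, where the 4.67% again does not apply, limma had 4 lower and 0 higher. Without 5-FU replicate 1 some of the bZIP genes were called in each direction, and more of all tested genes were called too.

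Among genes known as AP-1 targets, 2 chemokine genes fell, and Spp1 and Ccnd1 rose. Of 23 tested genes in a list of 31, 2 fell, 2 rose and 19 did not pass, with a median of −0.11. Over all tested genes 4.67% were lower and 8.23% higher. With 2 genes each way, no difference from those shares was read from the list. Fewer of the list were called higher without either control library, and more were called lower without 5-FU replicate 1. The same held for all tested genes. The genes that fell were the chemokine genes Ccl3, from 86.3 and 76.4 FPKM to 4.40 and 5.48 FPKM (−3.80, SE 0.22, limma adjusted p = 0.000377), and Ccl4, from 99.1 and 85.3 FPKM to 16.3 and 22.9 FPKM (−2.19, SE 0.23, limma adjusted p = 0.00594). Those that rose were Spp1, which encodes the secreted protein osteopontin, at 2.47 and 2.18 against 9.15 and 7.72 FPKM (1.50, SE 0.28, limma adjusted p = 0.0198), and the cyclin D1 gene Ccnd1, at 8.56 and 7.15 against 16.4 and 27.4 FPKM (1.33, SE 0.30, limma adjusted p = 0.0295).

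Markers of other cells and of handling moved between the same groups. Of the 15 macrophage markers 2 fell, the cytokine receptor gene Csf1r (−1.27, SE 0.27) and the mannose receptor gene Mrc1 (−1.08, SE 0.25), none rose and 13 did not pass. The median was −0.90, and none of the 15 was listed at 0 in any library. Emr1, the F4/80 gene that defines many tissue macrophages, had 211 and 264 FPKM in control and 169 and 84.9 FPKM in 5-FU libraries. It did not pass (−0.97, SE 0.32, limma adjusted p = 0.0837). Granulocyte markers fell in 6 of 10 genes (median −1.98; summed level 12702 and 10139 FPKM in control and 3790 and 3580 FPKM in 5-FU libraries). Of 9 tested erythroid markers 8 fell and of 9 tested B cell markers 6 fell. Of 6 tested T and NK cell markers 1 fell and 1 rose. None of 6 tested markers of stroma and endothelium was called. Over all tested genes 4.67% were lower and 8.23% higher. Of 10 stem and progenitor markers 1 rose, none fell and 9 did not pass, with a median of 0.28. The part of these cell types in the fall of the AP-1 genes was not tested. Heat shock genes, some of which also respond to handling, were mostly higher in 5-FU recipients. Of 11 tested, 5 rose, none fell and 6 did not pass, with a median of 0.84 and 3 negative differences. The number higher was 1 without either control library and 0 with no filter on low values, and 1 was called lower without control replicate 1. The stress-inducible Hspa1a (named after its values were seen) had 6.33 and 20.7 FPKM in control and 3.50 and 2.23 FPKM in 5-FU libraries. It did not pass (−1.73, SE 0.50, limma adjusted p = 0.0592). The related Hspa1b, also named after its values were seen, had 1.50 and 6.93 FPKM in control and 2.66 and 3.41 FPKM in 5-FU libraries. Those values overlap (−0.15, SE 0.52, limma adjusted p = 0.871). Hsph1, a cytosolic chaperone of the HSP110 family, had 13.7 and 11.4 FPKM in control and 42.4 and 55.6 FPKM in 5-FU libraries (1.88, SE 0.23, limma adjusted p = 0.0090). Hspd1 and Hspe1, the mitochondrial chaperonin pair HSP60 and HSP10, rose by 1.54 (SE 0.19) and 1.62 (SE 0.24) on the log2 scale. The part of handling in the fall of the AP-1 genes was not tested.

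**Figure D4:**
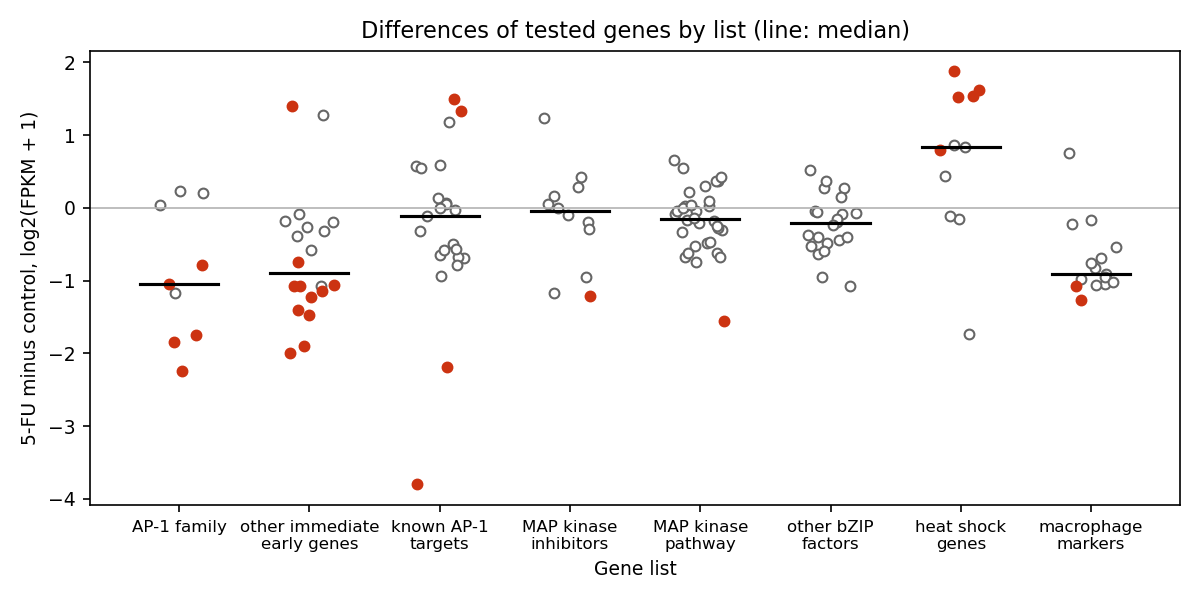
Difference between 5-FU and control recipients in log2(FPKM + 1) (y axis) for the tested genes of each list, with 1 point per gene, filled where the adjusted p was under 0.05, and a line at the median. The medians of the AP-1 family (−1.04), the other immediate early genes (−0.90) and the macrophage markers (−0.90) lie below 0, and that of the heat shock genes (0.84) above it.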

How the data were processed

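EGFP+ cells from 4 recipients were profiled by RNA-seq with a low-input SMART-Seq kit and single-end reads, per the labels' protocols. Per the submitters' processing notes, the authors used TopHat2 2.0.13, Bowtie2 2.2.3, SAMtools 0.1.19, Cuffnorm 2.2.1 and mm10. The deposited values are taken as FPKM, the default of Cuffnorm, scaled between libraries by that tool; its scaling setting and the annotation are not known here. The column headers of the 5-FU files carry another day number than the file names, and groups follow the labels.

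Tests used log2(FPKM + 1) of the deposited values and covered the 11496 genes that reached 1 FPKM in at least 2 libraries. A fold change on that scale understates the change of genes with low values. The group difference was fitted by limma 3.58.1 under R 4.3.3 (mean-variance trend, two-sided, Benjamini-Hochberg adjustment, threshold 0.05; 2 residual and 5.62 prior degrees of freedom). The fit was tested on simulated data. An exact permutation test has too few arrangements of 4 libraries to pass. The labels do not say whether donor cells were pooled, so p-values measure the spread between these recipients' libraries, which may be in part technical. Reads per library were estimated from the spacing of low FPKM in 226 to 298 single-transcript genes. Figures were drawn with matplotlib 3.10.9.

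The members and gene lists were chosen with earlier results of these data known. The text names all 10 members, Egr1, Srf, Dusp1 and Mapk8, up to 3 genes of smallest p in each direction per list and the 5 genes nearest to Fos and to Jun. Alternatives were other pseudocounts, filters, scalings and variance models, the replicate number as a block, and leaving out each library.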

Additional observations from a re-analysis of the deposited data

How the results depend on the processing

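The number of members called lower was again 5 with a pseudocount of 0.1 or 5, a filter of 5 FPKM, robust eBayes, and TPM, median-ratio or quantile scaling, and were 4 without a trend. With no filter on low values limma called 0 (5 at an unadjusted p under 0.05), and all genes called lower fell from 537 to 4 and higher from 946 to 3. Leaving out 1 library gave 0 to 6 members lower, 38 to 1876 of all genes lower and 88 to 2122 higher; the low ends come from leaving out a control library. Of the other immediate early genes 10 were lower and 1 higher; with no filter 0 and 0, and when leaving out 1 library 1 to 11 and 0 to 2 (2 higher with the crossed pairing). Without a trend 299 of all genes were lower and 548 higher. No member was called higher in any alternative. The replicate numbers pair nothing that the labels name, and deviations of same-numbered libraries correlated at −0.159 across genes; with the replicate block 4 members were lower, Junb being lost (adjusted p = 0.0698), Dusp1 passed (adjusted p = 0.0267) and 1 heat shock gene was lower. With the crossed pairing, added after the data were seen, 6 members, 1365 of all genes lower and 1686 higher were called. Emr1, Csf1r, Mrc1, Hspa1a and Hspa1b were not followed gene by gene through the alternatives. Among the named genes that were, signs turned only for genes that did not pass. These were Fosl2 (−0.0099 with TPM scaling, −0.045 to 0.12 when leaving out 1 library), Batf (−0.056 to 0.45), Egr1 (−0.56 to 0.21) and Mapk8 (−0.040 with TPM scaling, −0.13 to 0.17). The cause of these changes was not tested. No scaling moved the median of all genes by more than 0.1 on the log2 scale. Depth limits Fosl1, Fosl2 and Maff, which rest on at most about 89.7 reads per library. It also limits Atf3, at about 86.3 and 31.8 reads in 5-FU recipients 1 and 2.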
